A study of Mus musculus with 12 samples.

Results

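Hepatocytes differentiated in culture (Diff. hepatocytes) were compared with hepatocytes taken from adult mice (mature hepatocytes), over 16361 of the 53715 genes in the count table. A gene entered the comparison when it had more than 10 counts in any of the 8 libraries of both groups, and 23772 of the other genes had 0 counts in all 8. The study grew progenitor cells of the embryonic liver into hepatocytes and sequenced RNA before culture, after culture and from the adult organ. The comparison addressed here asks which functions of the adult cell were missing after culture and which programs of the embryo or of culture were on. The labels give the strain C57BL/6JOlaHsd for all libraries and name no transgene, while by the study's methods hepatoblasts were also isolated from another wild-type strain and from transgenic lines. The starting cells were hepatoblasts carrying the surface protein Dlk1, isolated with magnetic beads at E14.5 from pooled livers of embryos whose sex is not given in the sources used here. The Diff. hepatocytes were such cells kept for 4 days on fibronectin in medium with serum, insulin, transferrin and selenium, the glucocorticoid dexamethasone and dissolved Matrigel (a basement membrane extract). The mature hepatocytes came from males 8 to 12 weeks old, were freed by collagenase perfusion and were lysed at once. Age, culture, method of isolation and the choice of sex therefore differed together between the groups, and their parts cannot be told apart. By the study's account the hepatoblast isolations also hold some bile duct cells. Each group had 4 biological replicates, and poly(A) RNA was read as single 75-base reads.

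The deposited values were raw read counts per gene. Totals ran from 19581551 to 22026087 counts per library in Diff. hepatocytes and from 20043218 to 23791477 in mature hepatocytes. Levels are given as CPM, the count relative to the size of the library, with sizes scaled by edgeR's TMM method. Errors of log2 fold changes are standard errors (SE). A library with no count of a gene still allows up to 3 counts at this depth, between 0.128 and 0.204 CPM in the 8 libraries. Means are given ± SD over the 4 libraries of a group. Where values of single libraries are given, they are in the order of the replicates, and the groups did not overlap unless this is stated. Hepatoblast levels, from 4 libraries in the same fit, stand beside the comparison to show where the cells started, and tests against hepatoblasts share the Diff. libraries with the main comparison. The hepatocyte makes most plasma proteins, turns ammonia into urea, feeds glucose to the blood, oxidises fat, forms bile and clears drugs. Many of these functions start around birth or at weaning, when genes of the fetal liver are switched off. Some are also set by the position of a cell along the liver lobule or, in rodents, by the sex-specific rhythm of growth hormone.

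The groups differed across much of the genome. Genes counted as called had an absolute log2 fold change over 1 and, in edgeR's quasi-likelihood test, an adjusted p (Benjamini-Hochberg) under 0.01. Of the 16361 genes, 6233 were called (38.1%), 3475 of them higher (21.2%) and 2758 lower (16.9%) in Diff. hepatocytes. The 4 Diff. and the 4 mature libraries did not overlap for 10676 genes (65.3%). The log2 fold change is Diff. minus mature hepatocytes throughout, and its median over all genes tested was 0.05. Higher calls thus made up 55.8% of the calls, but the split depended on scaling. With library totals in place of TMM factors it was 75.0%, and without the 50 most abundant genes in the totals 75.9%, and the median of all genes moved up by 0.53 and 0.56 on the log2 scale. Changes of the lists are therefore read against the median of all genes, and list medians that changed sign with this shift are named. Between replicates, the correlation of log2 CPM across genes was 0.979 to 0.991 among Diff. libraries and 0.981 to 0.987 among mature libraries, and it was 0.780 to 0.822 between libraries of different groups.

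Both groups carried the RNA of hepatocytes. Albumin (Alb, ENSMUSG00000029368, chromosome 5 from 90460897 to 90476602 of GRCm38) was the most abundant gene of the 10 hepatocyte identity genes in both. Its level was 38221, 36559, 41325 and 43003 CPM in the 4 Diff. libraries and 91254, 80087, 87512 and 117120 CPM in the 4 mature libraries, with no overlap. The log2 fold change was -1.24 (SE 0.19, adjusted p = 7.7e-05 by edgeR), and it was -0.70 when library totals were used without TMM factors, which did not pass the threshold. The call was also lost with a fold change threshold inside the test. The 10 genes, which include Apoa1, Apob, Trf, Hnf4a and Fgb, together held 9.57, 10.4, 10.4 and 10.8 percent of the counts of the 4 Diff. libraries and 10.2, 9.99, 10.96 and 12.0 percent of those of the 4 mature libraries. These shares overlapped, but in summed CPM the groups did not, at 87696, 97172, 100638 and 103219 in Diff. and 144821, 127043, 143459 and 174395 in mature libraries. Of the 10 genes 3 were called lower, 1 higher and 6 not at all, and with library totals 1 lower and 2 higher. Each had a mean over 1 CPM in both groups, as the label of hepatocyte requires. Hepatoblasts also held 6.07, 7.12, 7.85 and 8.75 percent of their counts on these genes.

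RNA of other cell types was present at different levels in the groups. Of 13 markers of mesenchymal cells, which make fibrous collagen and surround vessels, 10 were called higher in Diff. hepatocytes and 2 lower. Their summed level was 3019, 1549.8, 2091 and 1340.1 CPM in Diff. libraries and 77.9, 78.4, 114 and 98.7 CPM in mature libraries, none of the 13 was at 0 in either group, and the most abundant were Col1a1 in Diff. and Dcn in mature hepatocytes. Hepatoblasts held 1331, 1772, 2376 and 1908 CPM of these markers. Endothelial markers lay on the other side, with 10 of 12 lower in Diff. hepatocytes, 2 not called and none at 0. Their summed levels were 123, 109.6, 77.6 and 89.5 CPM against 389, 226, 384 and 272 CPM. The most abundant was Stab1 in Diff. hepatocytes, with a mean of 66.9 CPM, and Stab2 in mature hepatocytes, with 54.5 CPM. Stab1 was thus not among the 10 lower genes. Of 14 macrophage markers, 5 were lower (3 with a fold change threshold inside DESeq2's test) and none higher, at 243, 118, 37.4 and 58.1 CPM in Diff. libraries and 345, 227, 359 and 192 CPM in mature libraries, ranges that overlapped, with Lyz2 and Mpeg1 most abundant and none at 0. All 3 megakaryocyte markers were higher, at 43.1, 44.6, 13.4 and 22.7 against 3.87, 4.95, 4.15 and 3.12 CPM, led by Itga2b, and so were the 3 mesothelial markers, at 17.3, 6.85, 10.8 and 8.68 against 1.97, 0.317, 0.749 and 0.672 CPM, led by Msln. Of 7 neutrophil markers, 6 were tested and 3 were higher, at 133, 72.3, 6.54 and 22.3 against 1.16, 0.444, 1.04 and 0.367 CPM, with S100a9 most abundant in Diff. and S100a8 in mature hepatocytes and Ly6g at 0 in mature hepatocytes. Erythroid markers summed to 30.9, 15.7, 7.77 and 7.66 against 184, 158, 147 and 133 CPM, with 9 of 16 tested, 1 of them lower, Hbb-bs most abundant in Diff. and Alas2 in mature hepatocytes, and Hbb-y at 0 in Diff. and Epb42 at 0 in mature hepatocytes. Alas2 alone had 149 ± 19.98 CPM in mature hepatocytes, whereas the 9 tested markers had a median of 1.71 (log2 fold change), opposite in direction to the sum. This median turned negative with at least 10 counts in every library and with edgeR's filter. Hepatoblasts held 3136, 629.8, 521 and 378 CPM of erythroid and 451, 46.8, 29.8 and 31.1 CPM of neutrophil markers, and replicate 1 stood apart in both. Of 8 lymphocyte markers 2 had enough counts to be tested and were not called, at 5.69, 2.38, 0.571 and 0.780 against 5.44, 3.24, 7.14 and 2.69 CPM, ranges that overlapped, with Ptprc most abundant in both, and Ms4a1, Gzma and Klrb1c among those at 0 in Diff. hepatocytes. In bulk RNA, fewer cells of a type and less RNA per cell cannot be told apart, and the part of these cells in the results below was not tested.

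Genes that were on in one group and nearly silent in the other were few among these calls. Of the genes tested, 41 had a mean of at least 100 CPM in mature hepatocytes and under 1 CPM in Diff. hepatocytes, and 35 of these were under 1 CPM in hepatoblasts too. They include esterases (Ces1b, Ces1e, Ces3a and Ces3b), major urinary proteins (Mup11, Mup14, Mup16, Mup17 and Mup21) and cytochromes P450. The reverse pattern was shown by 12 genes, Acta2, Akr1b7, Bex1, Bex3, Ggt1, Hif3a, Igdcc4, Igf2, Plagl1, Rbp2, Spink1 and Wnt4, and all 12 had at least 1 CPM in hepatoblasts. Ggt1 (ENSMUSG00000006345, chromosome 10 from 75561604 to 75586200), which cleaves glutathione outside the cell and is known from fetal liver, measured 262, 289, 297 and 285 CPM in the Diff. and 0.476, 0.317, 0.288 and 0.122 CPM in the mature libraries (log2 fold change 9.88 ± 0.27 SE, adjusted p = 9.22e-12 by edgeR). Hif3a, a member of the family of hypoxia factors, measured 183, 163, 185 and 191 CPM and 0.204, 0.190, 0.115 and 0.122 CPM in the same order. Rbp2, which binds retinol in the intestine, stood at 157, 218, 154 and 171 CPM and 0.272, 0.254, 0.115 and 0.122 CPM. The 3 genes also exceeded their levels in hepatoblasts, with means of 23.0 ± 5.17 CPM for Ggt1 and 9.20 ± 1.47 CPM for Rbp2 and with 46.0, 11.5, 11.5 and 11.7 CPM of Hif3a in the 4 libraries, of which the first stood apart. The log2 fold changes were 3.62 (Ggt1), 4.25 (Rbp2) and 3.16 (Hif3a), and the genes were called in that comparison, in which 15.4% of the genes tested were called higher and 12.8% lower in Diff. hepatocytes.

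Among called protein-coding genes of at least 50 CPM in the higher group and no overlap, the 12 with the largest fold change upwards included 2 matrix genes of connective tissue. Col11a1 had 157, 56.5, 87.1 and 47.7 CPM in Diff. libraries and 2 counts in the 4 mature libraries together, a ratio of 2836 with a 95% counting interval of 785 to 23420. Lox, which crosslinks collagen, had 145, 66.3, 93.6 and 56.1 CPM against 0, 0.190, 0 and 0.122 CPM (log2 fold change 10.08, or 10.92 without mature hepatocytes replicate 2). Replicate 1 of the Diff. hepatocytes had the most of both. Vmn2r3, a gene of the vomeronasal receptor family, measured 102, 68.3, 108 and 114 CPM in Diff. libraries against 0.0680, 0.0635, 0.115 and 0.0611 CPM in mature libraries (log2 fold change 10.20 ± 0.29 SE, adjusted p = 1.53e-11 by edgeR). It had 8802 counts in the 4 Diff. libraries together, 5 in the 4 mature libraries and 2 in the 4 hepatoblast libraries. The enzymes Sult2a1 and Akr1b7 reached means of 56.1 ± 11.02 and 142 ± 19.2 CPM against 0.107 ± 0.136 and 0.377 ± 0.156 CPM, and Igdcc4, a surface protein of the immunoglobulin family, 122 ± 9.68 against 0.323 ± 0.0943 CPM. The fold change of Sult2a1 was 8.94 and rose to 10.22 without mature hepatocytes replicate 4, and 19.4% of the 75-base windows of its transcripts are shared with other genes. Acta2, Bex1 and Afp, the others of the 12, are described with their groups. By the difference in mean CPM the first 5 higher genes among these were Afp, Ahsg, Igfbp1, Fn1 and Itih3, and the first 5 lower genes were Alb, Apoe, Serpina3k, Serpina1e and Mup3. Ahsg, the plasma protein fetuin-A, had 18326, 22768, 24063 and 24756 CPM against 8748, 8547, 9666 and 9239.5 CPM, and Apoe, an apolipoprotein, 8289.6, 10794, 10205 and 10373 CPM against 30997, 23082, 24397 and 34001 CPM. The call of Apoe was lost with library totals, at -0.97, and with a fold change threshold inside DESeq2's test, and that of Ahsg with such a threshold in DESeq2 or edgeR. Serpina1e had 713 ± 136 against 12288 ± 4424 CPM, with 19.7% of its windows found in other genes as well.

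The 12 genes with the largest fold change downwards were mostly enzymes and secreted proteins of adult liver. Car3, a carbonic anhydrase, measured 0.471, 0.468, 0.571 and 1.37 CPM in Diff. and 3617, 3009, 3507 and 3493 CPM in mature libraries (log2 fold change -12.23 ± 0.38 SE, adjusted p = 2.92e-11 by edgeR). Its hepatoblast mean was 218 ± 65.6 CPM, so the Diff. hepatocytes had less than either of the other groups (log2 fold change -8.26 against hepatoblasts, edgeR adjusted p = 9.7e-10). Akr1c6, a steroid dehydrogenase, had 0.171, 0.170, 0.439 and 0.439 CPM against 957, 1056, 1089 and 1239 CPM. Ces3b measured 0.189 ± 0.0416 and 733 ± 189.6 CPM on average, and 15.4% of its windows also occur in other genes. Cyp2c54 and Slc22a7 had 2 and 1 counts in the 4 Diff. libraries together, against 12730 and 5372 counts in mature hepatocytes, ratios of 8938 (95% counting interval 2474 to 73810) and 7544 (1353 to 298000). Cyp2c54 is a cytochrome P450, with 14.1% of its windows shared, and Slc22a7 an uptake carrier of organic anions. The log2 fold change of Slc22a7, -12.31, was -13.93 without Diff. hepatocytes replicate 4, which held its only count in the Diff. libraries. For Cyp4a12b and Mup1 the counts were 2 and 1 against 6851 and 4201, with 41.3% and 57.8% of their windows shared with other genes. Mup11 and Mup17 had means of 911 ± 267 and 722 ± 275 CPM in mature hepatocytes and 18 and 11 counts in the Diff. libraries together, and 73.7% and 68.7% of their windows are shared. Elovl3, C6 and Mup3 complete the 12. The log2 fold changes of Mup11 and Mup17, -12.11 and -12.47, were -12.72 without Diff. hepatocytes replicate 4 and -13.13 without Diff. hepatocytes replicate 1. Those of Cyp4a12b and Mup1, -11.92 and -11.96, moved further, to -14.28 without Diff. hepatocytes replicate 4 and -13.55 without Diff. hepatocytes replicate 2.

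**Figure D1:**
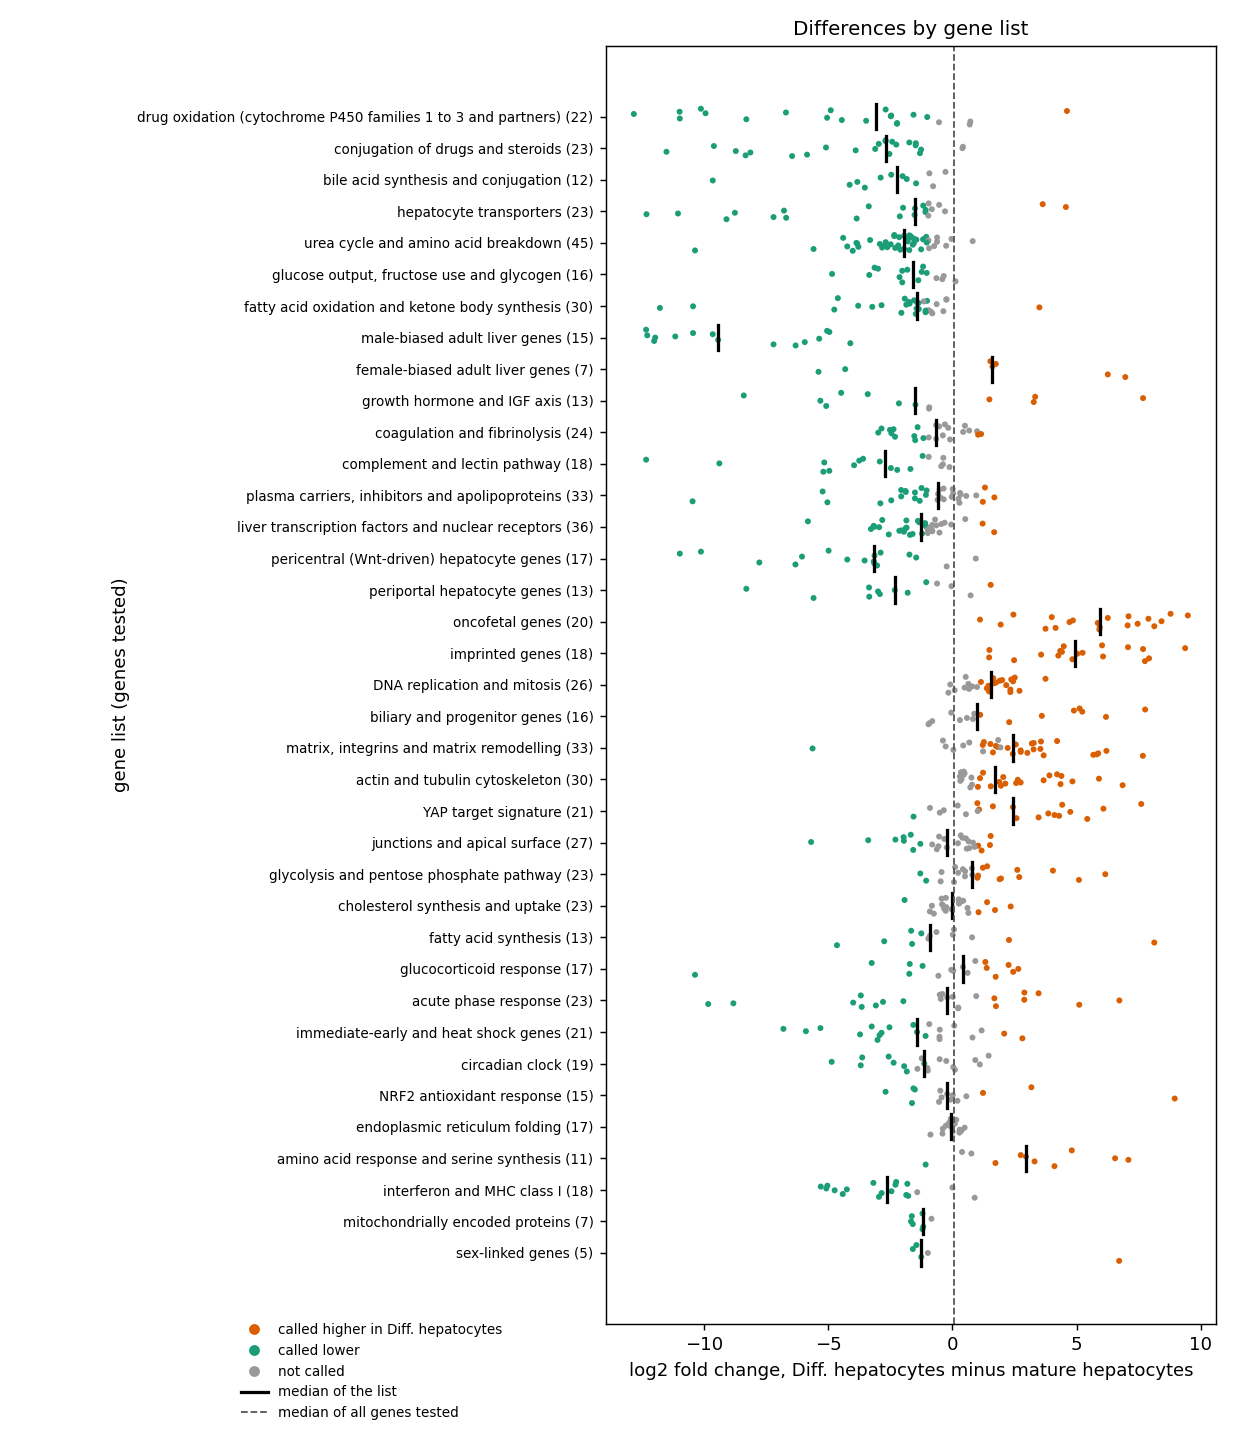
Each point is a tested gene of a list, with its log2 fold change (Diff. minus mature hepatocytes, 4 libraries each) on the x axis, and genes at 0 in 1 group are drawn at their lower bound. Black bars are list medians and the dashed line is the median of all genes tested, 0.05. All 20 oncofetal and all 18 imprinted genes lie to the right of it and all 15 male-biased genes to the left. The lists were chosen with earlier results of these data known.

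Most genes of drug oxidation were lower in Diff. hepatocytes. Of 22 genes of cytochrome P450 families 1 to 3 and their partners, 18 were lower, 1 was higher and 3 were not called, with a median log2 fold change of -3.08 against 0.05 for all genes. With library totals 17 were lower and 3 higher. Cyp2e1 (ENSMUSG00000025479, chromosome 7 from 140763739 to 140774987), which oxidises ethanol and acetaminophen, measured 3.13, 3.23, 2.28 and 4.19 CPM in Diff. libraries and 5600.1, 6949, 4229.9 and 8909 CPM in mature libraries (log2 fold change -10.97 ± 0.32 SE, adjusted p = 1.74e-11 by edgeR). Its mean in hepatoblasts was 2.89 ± 0.269 CPM, and the difference from Diff. hepatocytes was not called (log2 fold change 0.14, edgeR adjusted p = 0.637). Cyp1a2, which demethylates caffeine, stood at 0.771, 0.893, 0.966 and 0.975 CPM and 901, 949, 926 and 1249 CPM in the same order, with mature hepatocytes replicate 4 above the others. Cyp2c29 had 0.557, 1.02, 0.571 and 0.878 CPM and 1566, 1071, 1497 and 1997 CPM, and 2.46% of its windows are shared with related genes. The gene called higher was Cyp2b10 (ENSMUSG00000030483, chromosome 7 from 25897620 to 25926624), the classic target of the xenobiotic receptor CAR, with 149, 223, 214 and 176 CPM in Diff. and 14.7, 3.62, 2.88 and 10.1 CPM in mature libraries (log2 fold change 4.61 ± 0.41 SE, adjusted p = 4.63e-07 by edgeR). Hepatoblasts had a mean of 0.263 ± 0.0707 CPM of it. Set against hepatoblasts, 15 of the 22 genes were higher in Diff. hepatocytes and none lower. The most abundant gene of the list was Por, the reductase that serves all P450 enzymes, in Diff. hepatocytes and Cyp2e1 in mature hepatocytes.

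The conjugating enzymes, which make drugs and steroids soluble, were lower in 21 of 23 cases and higher in none, with a median log2 fold change of -2.69. Ugt2b1, a glucuronosyltransferase, had 2.06, 4.42, 2.59 and 3.22 CPM in Diff. libraries against 805, 978, 930.01 and 729 CPM in mature libraries (log2 fold change -8.13 ± 0.26 SE, adjusted p = 3.64e-11 by edgeR). Ugt2a3 had 11 counts in the 4 Diff. libraries together and 378, 348, 326 and 433 CPM in the mature libraries. Ephx1, the epoxide hydrolase, lay between, at 92.7, 131, 105 and 104 CPM and 656, 531, 729 and 871 CPM, and above its hepatoblast mean of 7.58 ± 0.640 CPM (log2 fold change 3.83 against hepatoblasts). Sult1a1, a sulfotransferase for phenols, was 1 of the 2 genes not called, with 191, 207, 272 and 237 CPM in Diff. and 175, 139, 141 and 220.5 CPM in mature libraries, ranges that overlapped.

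Bile acid synthesis was lower at most of its steps. Of 12 tested genes 9 were lower and none higher, with a median log2 fold change of -2.23. Hsd3b7 did not pass the filter. Cyp7b1 (ENSMUSG00000039519, chromosome 3 from 18071950 to 18243338), which hydroxylates oxysterols, measured from 0.395 to 0.856 CPM in the Diff. and 521, 815, 445 and 367 CPM in the mature libraries (log2 fold change -9.64 ± 0.33 SE, adjusted p = 6.93e-11 by edgeR). Cyp8b1, which is needed for cholic acid, reached 28.9, 50.6, 32.7 and 37.3 CPM in Diff. hepatocytes against 735, 539, 483 and 359.6 CPM (log2 fold change -3.82). In hepatoblasts its mean was 2.48 ± 0.838 CPM, and the Diff. libraries were called higher than these (log2 fold change 3.91). Cyp7a1, the rate-limiting enzyme, had 42.9, 42.5, 48.9 and 45.2 CPM in Diff. libraries and 37.9, 231, 127 and 245 CPM in mature libraries. The groups overlapped, and the call (log2 fold change -1.84 ± 0.42 SE, adjusted p = 0.00179 by edgeR) was lost with library totals and with a fold change threshold inside the test. Slc27a5, which activates bile acids for conjugation, had means of 121 ± 27.5 and 1388 ± 149 CPM.

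Among 23 transporters, 16 were lower, 2 higher and 5 not called (median log2 fold change -1.52). Slco1b2, a carrier of organic anions, measured 95.9, 86.0, 93.2 and 89.4 CPM in Diff. and 1254, 1234, 1164 and 1603 CPM in mature libraries (log2 fold change -3.85 ± 0.22 SE, adjusted p = 8.88e-09 by edgeR). Slc10a1, the sodium-dependent bile acid carrier, had 300.04, 483, 384 and 348 CPM against 747, 809, 784 and 869 CPM and a hepatoblast mean of 4.88 ± 2.30 CPM. Its log2 fold change of -1.08 passed the threshold, but was -0.98 without Diff. hepatocytes replicate 1 and -0.56 with library totals, neither of which did. Aqp9, the glycerol channel, stood at 3.90, 4.25, 3.34 and 3.61 CPM against 397, 458, 317 and 484 CPM, below its hepatoblast mean of 10.9 ± 0.759 CPM. Both higher genes export from the cell. Abcc4, which pumps organic anions out across the basolateral membrane, had 102, 44.3, 78.5 and 80.0 CPM in Diff. and 3.06, 2.35, 2.99 and 4.40 CPM in mature libraries (log2 fold change 4.57, edgeR adjusted p = 7.98e-09), and Abcb1a, a P-glycoprotein, had means of 35.8 ± 2.31 and 2.87 ± 1.70 CPM, with 12.5% of its windows shared with other genes.

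Genes of amino acid breakdown were largely lower. Of 45 genes of the urea cycle and of amino acid breakdown 36 were lower, none higher and 9 not called, with a median log2 fold change of -1.94. The most abundant gene of the list in both groups was Cps1, of the urea cycle. Its means were close, at 5854 CPM in Diff. and 5991 CPM in mature hepatocytes. Tdo2 (ENSMUSG00000028011, chromosome 3 from 81957090 to 81976202), which opens the ring of tryptophan, measured 1.76, 1.40, 1.54 and 1.66 CPM in Diff. libraries and 2044, 1852, 1695 and 2760.3 CPM in mature libraries (log2 fold change -10.36 ± 0.21 SE, adjusted p = 1.69e-12 by edgeR). Its mean in hepatoblasts was 0.597 ± 0.0862 CPM. Otc, the mitochondrial enzyme that joins ornithine and carbamoyl phosphate, had 30.7, 51.5, 45.1 and 44.0 CPM against 606, 587, 537 and 625 CPM and a hepatoblast mean of 145 ± 27.7 CPM, so Diff. hepatocytes held less of it than either of the other groups (log2 fold change -3.78 against mature hepatocytes and -1.76 against hepatoblasts, both called). Ass1, the next enzyme of the cycle, was not called, at 865, 915, 1177 and 989 CPM and 1805, 1347, 1199.7 and 1687 CPM (log2 fold change -0.61, edgeR adjusted p = 0.00675), and 32.6% of its windows occur in other genes. Sds, which removes the amino group of serine, had means of 3.67 ± 0.996 and 177 ± 37.0 CPM, and Bhmt, which remethylates homocysteine, 34.3 ± 3.61 and 721 ± 244 CPM.

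Many genes of glucose and fat metabolism were lower. Of 16 genes of glucose output, fructose use and glycogen 12 were lower and none higher (median log2 fold change -1.59), and of 30 genes of fatty acid oxidation and ketone body synthesis 21 were lower and 1 higher (median -1.43). With library totals 8 and 13 were lower, and with a fold change threshold inside DESeq2's test 7 and 13. Khk, which phosphorylates fructose, had 17.5, 21.99, 20.3 and 21.3 CPM in Diff. and 575, 576, 639.6 and 531 CPM in mature libraries (log2 fold change -4.84 ± 0.12 SE, adjusted p = 5.16e-12 by edgeR). The Diff. libraries lay below the hepatoblast mean of 44.3 ± 4.89 CPM. Fbp1, an enzyme of glucose synthesis, was called higher in Diff. hepatocytes than in hepatoblasts, from a hepatoblast mean of 2.48 ± 0.652 CPM to 203, 173, 136 and 142 CPM in Diff. hepatocytes, below the 1297, 1568, 1344 and 1521 CPM of mature hepatocytes (log2 fold change -3.13). Fabp1, the abundant fatty acid binding protein, measured 168, 333, 223 and 233 CPM against 6664, 6579, 5887 and 6629.6 CPM (log2 fold change -4.75 ± 0.23 SE, adjusted p = 1.7e-09 by edgeR), and hepatoblasts had 223 ± 47.8 CPM. Cpt1a, the gate of fatty acids into mitochondria, was not called, at 387, 551, 458 and 459.8 CPM and 691, 833, 516 and 834 CPM, ranges that overlapped. Cyp4f14, which hydroxylates fatty acids, had 9 counts in the 4 Diff. libraries together and 23606 in the 4 mature libraries (log2 fold change -11.77, or -12.47 without Diff. hepatocytes replicate 3).

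Genes of plasma proteins were divided. Of 24 coagulation genes 10 were lower, 2 higher and 12 not called (median log2 fold change -0.65). With library totals 7 were lower and 5 higher (median -0.12), and with a fold change threshold inside the test 8 and 0. The 24 genes took 4.50% of the counts in Diff. against 2.76% in mature hepatocytes. In summed CPM the groups were closer, at 41848, 44655, 42350.5 and 40951 against 40172, 35048, 39102 and 35448. Fgb, the beta chain of fibrinogen, was the most abundant of them, with 12509, 13287, 12022 and 11953 CPM in Diff. and 7187, 5458, 6947 and 5382 CPM in mature libraries. The groups did not overlap, and its log2 fold change of 0.99 (SE 0.16, adjusted p = 0.000114 by edgeR) fell just short of the threshold. It was called in most other settings, among them DESeq2's Wald test, the fit of the 8 libraries and library totals (at 1.52), so it stands at the edge of being called. F5, a cofactor of thrombin formation, was lower at 111, 120.2, 106 and 153 CPM against 754, 699, 921 and 1162 CPM, and Hrg, the histidine-rich glycoprotein, at 57.2, 205, 90.6 and 103 CPM against 866, 952, 763 and 1022 CPM. Of 33 carriers, inhibitors and apolipoproteins 15 were lower, 3 higher and 15 not called (median -0.57), or 9 lower and 5 higher with library totals. A fold change threshold inside DESeq2's test left 10 lower and 1 higher. Ttr, the carrier of thyroid hormone, measured 1109, 894, 1129 and 1056 CPM against 8297, 7359.7, 6928 and 8616 CPM (log2 fold change -2.90 ± 0.18 SE, adjusted p = 1.46e-08 by edgeR). Serpina3k, a serine protease inhibitor, had 14.3, 8.55, 7.46 and 7.51 CPM against 13895, 15853, 14428 and 8909 CPM, and 7.36% of its windows are shared within its family. Apoc3, which slows the clearance of triglycerides, had means of 54.4 ± 10.5 and 2029 ± 255 CPM. Itih3, a hyaluronan-binding inhibitor, was higher at 3534, 3416, 4119 and 3663 CPM against 1144, 1293, 1233 and 891 CPM (log2 fold change 1.69).

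Serpina6, which encodes the carrier of glucocorticoids in plasma, was lower in Diff. hepatocytes than in both other groups. Its mean in hepatoblasts was 4548 ± 914 CPM, the 4 Diff. libraries had 7.24, 5.19, 8.38 and 8.24 CPM, and the mature libraries 149, 223, 152 and 425 CPM. The log2 fold change was -5.03 against mature hepatocytes (SE 0.36, adjusted p = 6.5e-08 by edgeR) and -9.29 against hepatoblasts (SE 0.43, adjusted p = 2.65e-09 by edgeR). Complement was lower in 13 of 18 genes and higher in none (median log2 fold change -2.70). Among the proteins that form the membrane pore, C9 (ENSMUSG00000022149, chromosome 15 from 6445327 to 6498751) had 2.23, 1.19, 1.01 and 1.41 CPM in Diff. and 1007, 1208, 1041 and 650.03 CPM in mature libraries (log2 fold change -9.38 ± 0.33 SE, adjusted p = 9.21e-11 by edgeR), and was lower than in hepatoblasts too, which had a mean of 5.92 ± 1.56 CPM. C6 had a mean of 0.0875 ± 0.0326 CPM against 483 ± 119 CPM, and C8a 80.3, 119, 101 and 107 CPM against 1265, 1570.2, 1468 and 1156 CPM. C3, the hub of the cascade and its most abundant gene, was present at 6591, 6149, 6467 and 5730.3 CPM against 12744, 10877, 12271 and 12319 CPM and was not called (log2 fold change -0.95, edgeR adjusted p = 8.95e-05), although it was called without mature hepatocytes replicate 2.

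**Figure D2:**
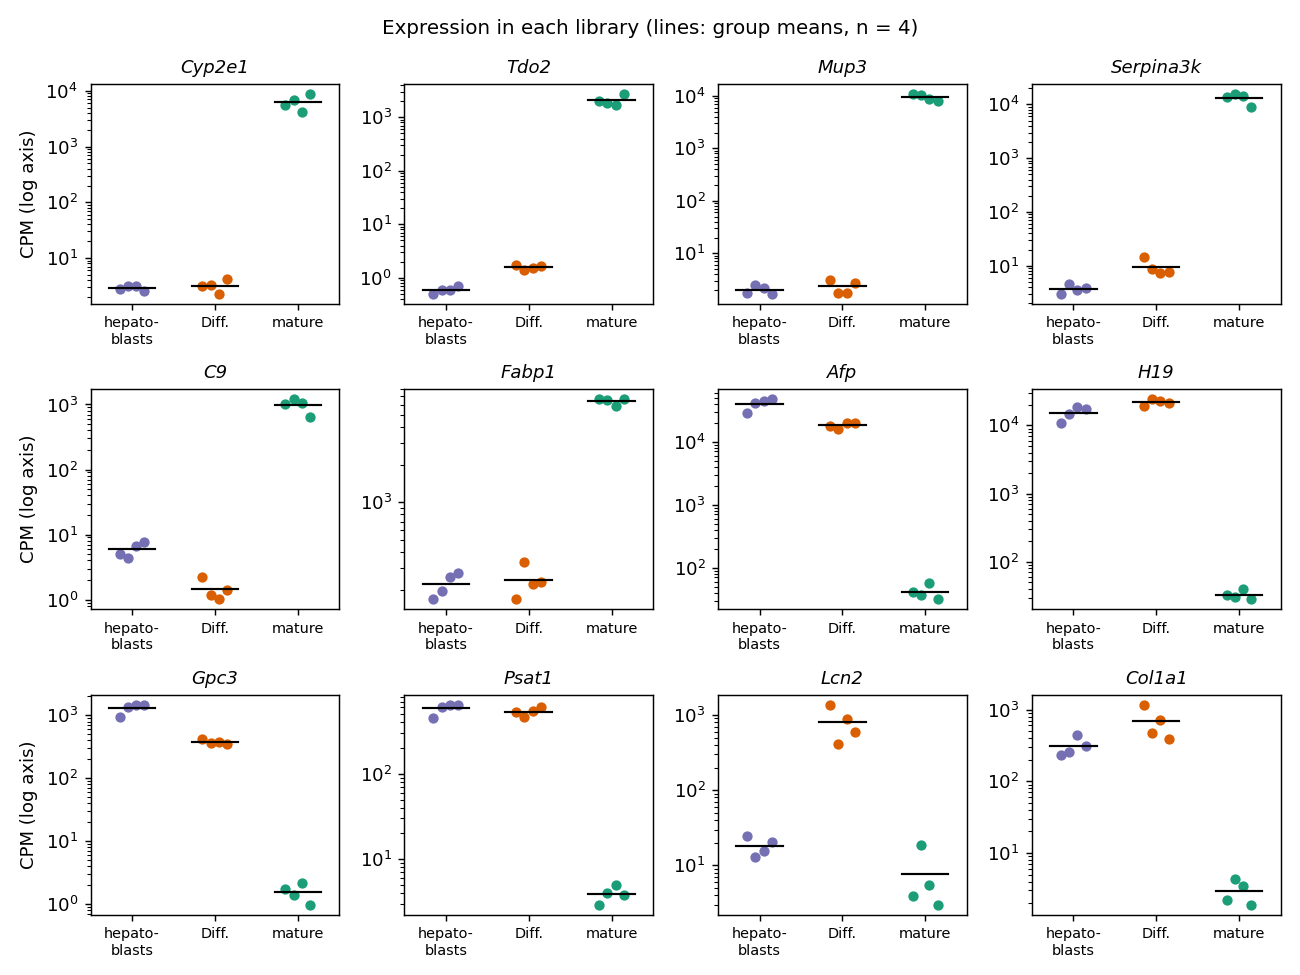
Points are the 4 libraries of hepatoblasts, Diff. hepatocytes and mature hepatocytes and lines their means, in CPM on log axes that differ between panels. Cyp2e1, Tdo2, Mup3, Serpina3k, C9 and Fabp1 are high in mature hepatocytes, whereas the Diff. libraries of Afp, H19, Gpc3, Psat1, Lcn2 and Col1a1 lie above all mature libraries.

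In rodents the pulses of growth hormone in males keep a set of liver genes on after puberty. Of 16 such male-biased genes 15 were tested, and all 15 were lower in Diff. hepatocytes, with a median log2 fold change of -9.64, or -9.43 with Mup2, which had 0 counts in all Diff. libraries, at its lower bound. Mup3 (ENSMUSG00000066154, chromosome 4 from 62083476 to 62087342), a urinary pheromone carrier, measured 3.08, 1.74, 1.76 and 2.73 CPM in Diff. libraries and 11056, 10407, 8754 and 7989 CPM in mature libraries (log2 fold change -12.00 ± 0.28 SE, adjusted p = 3.47e-12 by edgeR). The Mup genes are near copies, and 5.44% of the windows of Mup3 and 43.6% of those of Mup20 occur elsewhere, so single members are uncertain. Hsd3b5, a steroid reductase of male liver with 11.7% of its windows shared, had 14 counts in the 4 Diff. libraries together and 382, 383, 443 and 255 CPM in the mature libraries. Elovl3, which lengthens fatty acids, had 6 counts, and varied among mature libraries at 685, 76.8, 529 and 139 CPM. Cyp2d9, a male-biased P450, had 43.4, 69.1, 49.9 and 52.8 CPM against 1781, 1867, 1698 and 1736 CPM, with 12.9% of its windows shared. Of 7 tested female-biased genes 5 were higher (3 with a fold change threshold inside the test) and 2 lower, none above a mean of 20.7 CPM in Diff. hepatocytes. Xist, the RNA that silences an X chromosome in females, measured 308, 652, 388 and 362 CPM in Diff. and 4.69, 3.36, 4.26 and 3.97 CPM in mature libraries. Ddx3y, on the Y chromosome, measured 36.6, 13.7, 32.7 and 40.5 CPM and 85.1, 70.8, 84.9 and 95.5 CPM. Its call was lost with library totals and with a fold change threshold inside the test. Of the 5 sex-linked genes, 4 of them on the Y chromosome, 1 was higher and 3 were lower in Diff. hepatocytes, but 1 lower with library totals.

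Of 13 genes of the growth hormone and IGF axis 7 were lower and 4 higher (median log2 fold change -1.48). Ghr, the receptor, measured 66.7, 69.2, 66.4 and 68.0 CPM in Diff. libraries and 704, 750.3, 636 and 772 CPM in mature libraries (log2 fold change -3.40 ± 0.14 SE, adjusted p = 3.16e-10 by edgeR), with 75.7 ± 14.3 CPM in hepatoblasts. Igf1, the hormone that the liver secretes under growth hormone, had 4.41, 3.15, 1.27 and 1.61 CPM against 936, 859, 899 and 848 CPM (log2 fold change -8.39 ± 0.41 SE, adjusted p = 2.15e-09 by edgeR). Igfals, its plasma partner, had means of 4.91 ± 0.599 and 195 ± 29.8 CPM. The feedback genes Socs2 and Cish had means of 0.805 ± 0.397 against 27.0 ± 7.63 CPM and 1.495 ± 0.351 against 33.3 ± 19.5 CPM. On the higher side stood Igfbp1, a binding protein that insulin represses and glucocorticoids raise, with 3866, 5387, 4779.8 and 5019.5 CPM against 747, 463, 458 and 297 CPM (log2 fold change 3.28, edgeR adjusted p = 1.58e-07). Igf2, the fetal ligand, is described with the imprinted genes.

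Regulators of the hepatocyte were present, many of them at lower levels. Of 36 transcription factors and nuclear receptors 21 were lower, 2 higher and 13 not called (median log2 fold change -1.24), or 15 lower and 0 higher with a fold change threshold inside DESeq2's test. Hnf4a, which many hepatocyte genes need, was the most abundant in both groups, with 505, 678, 629 and 635 CPM in Diff. and 1104, 852, 1055 and 1284 CPM in mature libraries, and was not called (log2 fold change -0.81 ± 0.17 SE, adjusted p = 0.000909 by edgeR). Cebpa, a factor of metabolic maturation, measured 102, 117, 117 and 109.7 CPM against 771, 647, 698 and 1032 CPM (log2 fold change -2.82 ± 0.18 SE, adjusted p = 2.2e-08 by edgeR). Hepatoblasts had 154 ± 34.2 CPM of it. Nr1i3, which encodes CAR, was low in Diff. hepatocytes at 3.60, 6.13, 5.44 and 5.31 CPM against 39.8, 63.1, 36.0 and 59.5 CPM, although its target Cyp2b10 was higher there. Esr1, the estrogen receptor, had 0.504 ± 0.202 against 28.8 ± 9.77 CPM, and Mlxipl, the carbohydrate response factor ChREBP, 46.7 ± 8.73 against 419 ± 119.6 CPM. Zhx2 and Zbtb20, known as repressors of Afp after birth, were lower, with means of 10.5 ± 0.717 against 34.2 ± 3.26 CPM and 59.4 ± 3.61 against 349.8 ± 49.2 CPM (log2 fold changes -1.71 and -2.56). Ppargc1a, a coactivator of fasting metabolism, was 1 of the 2 higher genes, at 26.2, 42.1, 34.7 and 36.0 CPM against 7.41, 9.64, 13.8 and 12.3 CPM, a call that was lost with a fold change threshold inside DESeq2's test.

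Most genes of both zones of the lobule were lower. Wnt signals from the central vein keep the pericentral genes on, and 15 of 17 of these were lower and none higher (median log2 fold change -3.16). Axin2, a direct Wnt target in many tissues, had 0.343, 0.425, 0.219 and 0.293 CPM in Diff. libraries against 15.4, 9.07, 7.66 and 9.17 CPM in mature libraries and a hepatoblast mean of 7.34 ± 2.39 CPM (log2 fold change -4.98 against mature hepatocytes ± 0.36 SE, adjusted p = 6.01e-08 by edgeR, and -4.49 against hepatoblasts). Lgr5, a receptor of the same pathway, had 12 counts in the 4 Diff. libraries together against 4.42, 8.57, 11.6 and 11.9 CPM and a hepatoblast mean of 17.9 ± 5.37 CPM. Of 13 periportal genes 9 were lower and 1 higher (median -2.32), or 8 and 2 with library totals, while 11 of the 13 were higher than in hepatoblasts. A fold change threshold inside DESeq2's test left 7 lower and 0 higher than in mature hepatocytes. Hal, which breaks down histidine, stood at 59.5, 102, 88.9 and 85.7 CPM in Diff. and 842, 472, 603 and 625 CPM in mature libraries, from a hepatoblast mean of 11.1 ± 2.52 CPM. Cyp2f2, a periportal P450, had 5.82, 6.38, 5.93 and 6.44 CPM against 2049, 1859, 1956 and 1834 CPM. The share of counts on pericentral genes was 0.0564% in Diff. and 0.791% in mature hepatocytes, and on periportal genes 1.01% and 1.39%. Cps1 was the most abundant periportal gene in both groups, with means of 5854 CPM in Diff. and 5991 CPM in mature hepatocytes.

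Most genes of the interferon response, many of the early stress response and some of the clock were also lower in Diff. hepatocytes. Of 18 genes of the interferon response and MHC class I 15 were lower and none higher (median log2 fold change -2.65). B2m, the light chain of MHC class I, had 235, 286, 262 and 281 CPM in Diff. and 1329, 1475, 1091 and 1198 CPM in mature libraries (log2 fold change -2.26 ± 0.13 SE, adjusted p = 9.64e-09 by edgeR), and Irf7, an interferon regulator, means of 1.78 ± 0.398 and 60.2 ± 15.3 CPM. Of 19 clock genes 8 were lower and none higher (median -1.13). Dbp, a clock output, measured 2.57, 2.30, 3.16 and 3.27 CPM in Diff. libraries and 24.7, 121, 24.6 and 157 CPM in mature libraries, where replicates 2 and 4 were high. Arntl (Bmal1), which peaks in the opposite phase, was low in those same mature libraries, at 23.6, 1.46, 22.5 and 1.16 CPM, against 27.5, 36.2, 33.2 and 36.9 CPM in Diff. hepatocytes, and was not called (log2 fold change 1.46, edgeR adjusted p = 0.07). The hour at which the adult livers were taken is not given in the sources used here. Nr1d1, a clock repressor, had means of 8.68 ± 1.30 and 112 ± 68.4 CPM. Immediate-early genes respond within minutes to stress and to the handling of tissue. In a list of these and a few heat shock genes 12 of 21 were lower and 2 higher (median -1.42), or 10 and 4 with library totals. Fos had 6.64, 4.30, 3.51 and 3.56 CPM in Diff. and 208, 104, 210.5 and 194 CPM in mature libraries, and 394 ± 79.5 CPM in hepatoblasts, and Jun means of 40.4 ± 3.89, 531 ± 158 and 735 ± 121 CPM in the same order. Hepatoblasts and mature hepatocytes had been dissociated from tissue before lysis. Klf6, of the same list, was higher at 68.0 ± 12.97 against 9.62 ± 3.19 CPM.

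Messages of the mitochondrial genome were lower in Diff. hepatocytes in 6 of the 7 genes tested, of 13 in all (median log2 fold change -1.20), but in 3 of them with library totals (median -0.67) or with a fold change threshold inside the test. They took 2.004, 1.81, 1.90 and 1.89 percent of the counts of the 4 Diff. libraries and 3.14, 3.76, 2.92 and 3.45 percent of those of the 4 mature libraries, and 2.20% on average in hepatoblasts. Of the windows of mt-Nd4 61.5% and of those of mt-Co1 39.8% occur in other genes. The 6 genes left untested, among them mt-Co2 and mt-Co3, lacked the counts to pass the filter in both groups although respiring cells use them, so the counts of this genome are uncertain.

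Genes of the fetal liver were higher in Diff. hepatocytes. This held for all 20 oncofetal genes tested, known from fetal liver and liver tumours, with a median log2 fold change of 5.93. The list was chosen with earlier results of these data known, so this count describes the chosen genes. These 20 genes held 2.26, 1.97, 2.38 and 2.41 percent of the counts of the Diff. libraries and 0.00508, 0.00480, 0.00654 and 0.00375 percent of those of the mature libraries. Afp (ENSMUSG00000054932, chromosome 5 from 90490737 to 90508907), the fetal relative of albumin, measured 17745, 15769, 19898 and 20193 CPM in Diff. and 40.8, 37.4, 57.4 and 31.5 CPM in mature libraries (log2 fold change 8.78 ± 0.29 SE, adjusted p = 4.86e-11 by edgeR). Hepatoblasts had a mean of 40319 ± 8251 CPM, and the decline in culture was called (log2 fold change -1.13 ± 0.21 SE, adjusted p = 0.000378 by edgeR). Gpc3 (ENSMUSG00000055653, chromosome X from 52272426 to 52613950), a surface proteoglycan, had 429, 360.3, 375 and 348 CPM against 1.77, 1.40, 2.19 and 0.978 CPM, with 1317 ± 257 CPM in hepatoblasts. Igf2bp1, an RNA-binding protein, had 75.4, 61.8, 62.1 and 64.0 CPM against 12 counts in the 4 mature libraries together. Lin28b, which blocks the maturation of let-7 RNAs, had 333 counts in Diff. and 1 count in mature hepatocytes, a ratio of 237 with a 95% counting interval of 42.3 to 9394. Its log2 fold change of 7.46 rose to 9.44 without mature hepatocytes replicate 4, which held that count. Bex1, which was not called against hepatoblasts, had 261, 259.9, 288 and 270.5 CPM against 0.272, 0.381, 0.403 and 0.428 CPM and a hepatoblast mean of 322 ± 66.1 CPM, with 16.4% of its windows shared with its relatives. Against hepatoblasts, 12 of the 20 genes were lower in Diff. hepatocytes and 2 higher.

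Imprinted genes, which are read from one parental copy and belong to a network of fetal growth, were higher in all 18 cases (median log2 fold change 4.93), and none was called higher than in hepatoblasts while 10 were lower. H19 (ENSMUSG00000000031, chromosome 7 from 142575529 to 142578143), a long noncoding RNA, was the most abundant, with 19035, 24245, 23017 and 21641 CPM in Diff. and 33.1, 30.7, 40.7 and 28.3 CPM in mature libraries (log2 fold change 9.37 ± 0.26 SE, adjusted p = 1.14e-11 by edgeR). In hepatoblasts its mean was 15291 ± 3454 CPM. Igf2, its neighbour, measured 153, 209, 227 and 204 CPM against 0.815, 1.02, 1.09 and 0.917 CPM (log2 fold change 7.68 ± 0.23 SE, adjusted p = 2.83e-11 by edgeR) and 677 ± 146 CPM in hepatoblasts. Of its windows 60.2% also belong to other annotated genes, so its level is uncertain. Grb10, a brake on insulin and IGF receptors, had 1757, 1472, 1607 and 1465 CPM against 6.999, 16.8, 17.3 and 5.68 CPM. Peg3 had means of 1052 ± 63.0 and 15.7 ± 6.28 CPM. Plagl1, a transcription factor of the network, was at 125 ± 16.0 CPM against 0.515 ± 0.182 CPM, and at 123 ± 19.998 CPM in hepatoblasts. Igf2r, the receptor that clears Igf2, was the most abundant of the list in mature hepatocytes, with 333, 307, 320.4 and 355 CPM in Diff. against 102, 108, 119 and 139 CPM in mature libraries.

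Many genes of proliferation lay between the levels of the other groups. Of 26 genes of DNA replication and mitosis 17 were higher than in mature hepatocytes and none lower (median log2 fold change 1.56), and all 26 were lower than in hepatoblasts (median -3.52). All 9 tested erythroid markers were lower than in hepatoblasts too, and hepatoblasts replicate 1 had the most of both lists, so the part of dividing blood cells in this fall is open. With a fold change threshold inside the test 8 (DESeq2) or 10 (edgeR) of the 26 were higher than in mature hepatocytes. Top2a, which untangles chromosomes before mitosis, had 33.7, 17.1, 17.9 and 16.5 CPM in Diff. and 4.08, 5.52, 5.07 and 2.20 CPM in mature libraries (log2 fold change 2.33 ± 0.29 SE, adjusted p = 1e-05 by edgeR), and 384 ± 61.6 CPM in hepatoblasts. Diff. hepatocytes replicate 1 lay apart from the others. Pcna, the replication clamp, was not called against mature hepatocytes, at 25.6, 20.2, 22.2 and 22.7 CPM and 18.8, 21.8, 20.1 and 24.3 CPM, ranges that overlapped, while hepatoblasts had 122 ± 37.4 CPM. Biliary and progenitor genes were higher in 8 of 16 cases and lower in none (median 1.00). Krt19, a keratin of bile duct cells, measured 88.0, 24.5, 39.0 and 35.5 CPM against 9.24, 2.03, 2.25 and 2.08 CPM and a hepatoblast mean of 1.795 ± 0.311 CPM (log2 fold change 3.60 against mature hepatocytes, edgeR adjusted p = 3.73e-05, or 4.46 without mature hepatocytes replicate 1). Epcam, an adhesion protein of the same cells, had means of 11.3 ± 3.39 and 0.298 ± 0.183 CPM. Cldn4, a tight junction protein, had 72.1, 21.01, 39.6 and 29.9 CPM in Diff. libraries and 0 counts in all 4 mature libraries, at least 217-fold higher when 3 counts per mature library are taken as the floor. All 3 genes were highest in Diff. hepatocytes replicate 1.

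Many genes of attachment and cell shape were higher in Diff. hepatocytes. Of 33 genes of matrix, integrins and matrix remodelling 24 were higher and 1 lower (median log2 fold change 2.43), of 30 cytoskeleton genes 19 were higher and none lower (median 1.72), and of 21 genes of a signature of YAP, the effector of Hippo signalling that responds to stiff surfaces, 14 were higher and 1 lower (median 2.44). Fn1, which encodes fibronectin, had 6602, 6754, 5754 and 6056 CPM against 2406, 2537, 2616 and 2882 CPM (log2 fold change 1.27 ± 0.14 SE, adjusted p = 4.72e-06 by edgeR), a call that was lost with a fold change threshold inside the test. Col4a1, of the basement membrane, had 901, 385, 619.7 and 461 CPM against 36.2, 26.6, 47.6 and 17.0 CPM and a hepatoblast mean of 121 ± 19.99 CPM. Tnc, a matrix protein of wounds and embryos, had 72.7, 93.0, 77.2 and 65.2 CPM against 0.204, 0.444, 0.461 and 0.367 CPM (log2 fold change 7.67 ± 0.23 SE, adjusted p = 2.54e-11 by edgeR). Flna, which crosslinks actin, had 612, 283, 385 and 269.9 CPM against 24.3, 12.4, 21.1 and 16.1 CPM, and Myl9, a myosin light chain of contractile cells, means of 41.2 ± 13.5 and 0.682 ± 0.0925 CPM. Ccn2, a direct YAP target, measured 98.8, 27.2, 47.4 and 31.4 CPM in Diff. and 1.43, 0.571, 0.633 and 0.428 CPM in mature libraries, with 1.52 ± 0.296 CPM in hepatoblasts (log2 fold change 6.08 ± 0.49 SE, adjusted p = 1.81e-07 by edgeR). Ankrd1, another, had 66.2, 17.1, 32.6 and 21.9 CPM against 11 counts in the 4 mature libraries together, and its log2 fold change of 7.60 rose to 8.65 without mature hepatocytes replicate 1. Col4a1, Flna, Ccn2 and Ankrd1 were each highest in Diff. hepatocytes replicate 1.

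Of the mesenchymal markers, Acta2 and Col1a1 were highest in the same library. Acta2, the actin of smooth muscle and myofibroblasts, measured 378, 137, 273 and 146 CPM in Diff. and 0.136, 0.317, 0.461 and 0.183 CPM in mature libraries, with 10.7 ± 2.78 CPM in hepatoblasts (log2 fold change 9.68 ± 0.50 SE, adjusted p = 3.05e-09 by edgeR). Col1a1 had 1172, 479, 706 and 392 CPM against 2.17, 4.31, 3.46 and 1.89 CPM and 307 ± 92.3 CPM in hepatoblasts. Dcn, a marker of fibroblasts and stellate cells, was not called, at 40.3, 51.6, 41.5 and 41.3 CPM and 31.3, 23.0, 36.2 and 33.3 CPM (log2 fold change 0.50, edgeR adjusted p = 0.0159), though it was called at 1.03 with library totals. Of the 13 markers 10 were higher and 2 lower, Lrat among the latter, with log2 fold changes from -6.56 to 9.68. The Diff. library with the most Acta2 and Col1a1 was replicate 1, the one with the most Ccn2, Ankrd1, Flna and Krt19. Whether these genes were read from the same cells was not tested. Junction and apical surface genes moved both ways, with 4 of 27 higher, 8 lower and 15 not called, and a median log2 fold change of -0.22. Among all genes tested 21.2% were higher and 16.9% lower. With library totals 9 were higher and 7 lower and the median changed sign, and a fold change threshold inside DESeq2's test left 0 higher and 7 lower. Dpp4, a peptidase of the canalicular membrane, was low at 1.88, 4.04, 2.11 and 3.71 CPM against 149, 146, 149 and 160.2 CPM, and Cldn2, which forms cation pores, at 23.7, 7.40, 9.83 and 7.36 CPM against 126, 110.2, 132 and 137 CPM. The endothelial scavenger receptor Stab2 had 1.28, 1.66, 0.834 and 1.27 CPM against 61.6, 34.0, 73.8 and 48.3 CPM (log2 fold change -5.42).

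Genes of glycolysis and of serine synthesis were more often higher than lower. Of 23 genes of glycolysis and the pentose phosphate pathway 11 were higher, 2 lower and 10 not called (median log2 fold change 0.80), or 6 higher and 0 lower with a fold change threshold inside the test. Pfkp, the platelet form of phosphofructokinase, had 149, 197, 151 and 151 CPM in Diff. and 3.26, 1.78, 2.30 and 1.77 CPM in mature libraries, and 5.49 ± 2.32 CPM in hepatoblasts (log2 fold change 6.16 ± 0.29 SE, adjusted p = 1.43e-09 by edgeR). Of 11 genes of the amino acid response and serine synthesis 8 were higher and 1 lower (median 2.96). Psat1, which makes phosphoserine, measured 526, 466, 545 and 603 CPM against 2.92, 4.00, 4.95 and 3.79 CPM (log2 fold change 7.09 ± 0.19 SE, adjusted p = 1.1e-11 by edgeR) and 584 ± 93.3 CPM in hepatoblasts. Asns, the asparagine synthetase, had 149, 167, 159 and 153 CPM against 2.65, 6.35, 7.95 and 5.32 CPM and 159.7 ± 20.4 CPM in hepatoblasts. Phgdh, the first enzyme of serine synthesis, had means of 75.0 ± 5.06, 0.796 ± 0.247 and 354 ± 62.1 CPM in Diff. hepatocytes, mature hepatocytes and hepatoblasts, with 35.8% of its windows in other genes. Trib3, a pseudokinase of the stress response, was higher in Diff. hepatocytes than in both other groups, with 179.99, 129, 202 and 198 CPM against 16.3, 6.66, 5.13 and 13.1 CPM and 12.4, 3.70, 4.04 and 2.37 CPM in hepatoblasts. So was Slc7a11, the cystine carrier, with 33.7, 40.2, 27.6 and 32.6 CPM against 4 counts in the 4 mature libraries together and 2.11, 0.428, 0.563 and 0.271 CPM in hepatoblasts.

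Responses to the medium and to inflammation were mixed. Of 17 glucocorticoid response genes 6 were higher and 5 lower (median log2 fold change 0.43), or 2 and 4 with a fold change threshold inside DESeq2's test. Fkbp5, which binds the receptor complex, had 276, 229.7, 280.4 and 281 CPM in Diff. and 50.2, 77.9, 55.2 and 38.8 CPM in mature libraries (log2 fold change 2.26 ± 0.19 SE, adjusted p = 2.31e-07 by edgeR), and the kinase Sgk1 196, 146, 194 and 193 CPM against 37.2, 33.3, 33.1 and 29.8 CPM. Dusp1, a phosphatase that is also an immediate-early gene, was lower at 35.6, 27.4, 28.05 and 24.8 CPM against 275, 163, 332 and 328 CPM. Of 23 acute phase genes 7 were higher, 8 lower and 8 not called, and their median of -0.21 turned sign with library totals. Lcn2, an iron-sequestering protein of inflamed liver, measured 1374, 411, 893 and 601 CPM against 3.87, 18.8, 5.41 and 2.99 CPM (log2 fold change 6.72 ± 0.62 SE, adjusted p = 6.38e-07 by edgeR, or 7.63 without mature hepatocytes replicate 2). Lbp, which binds bacterial lipopolysaccharide, had 689.8, 727, 729 and 709.9 CPM against 114, 94.1, 94.6 and 81.8 CPM, and Saa3 313, 174, 235 and 193 CPM against 7.14, 10.3, 4.90 and 4.28 CPM. Saa1, with 18.5% of its windows shared, was lower, with 1.11, 0.340, 0.307 and 0.293 CPM against 59.8, 780.3, 81.3 and 22.9 CPM (log2 fold change -8.81, or -6.71 without mature hepatocytes replicate 2 and -9.52 without Diff. hepatocytes replicate 1). Mature hepatocytes replicate 2 was the highest mature library for Lcn2, Saa3 and Saa1. Hamp, the iron hormone hepcidin, had 217, 35.9, 144 and 46.6 CPM against 1322, 1035, 938 and 2409 CPM.

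In other pathways genes were called in both directions or not at all. Of all genes tested 38.1% were called, 21.2% higher and 16.9% lower. Of 17 genes of endoplasmic reticulum folding edgeR called 0, with log2 fold changes between -0.88 and 0.49 and a median of -0.05. DESeq2's Wald test also called 0, library totals in edgeR called 1 higher, and 4 had an unadjusted p under 0.05. Of 23 genes of cholesterol synthesis and uptake 4 were higher, 1 lower and 18 not called (median -0.02), of 15 NRF2 target genes 3 higher and 4 lower (median -0.21), and of 13 genes of fatty acid synthesis 2 higher and 5 lower (median -0.91). A fold change threshold inside DESeq2's test left 2 higher and 1 lower for cholesterol and 1 and 2 for fatty acid synthesis. The medians of the folding, cholesterol and NRF2 lists turned sign with library totals. Lss, which closes the sterol ring, was higher at 389, 420.4, 444 and 485 CPM against 76.9, 85.7, 90.9 and 87.8 CPM.

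For 14 pairs of related genes, the form of the adult hepatocyte was set against a form of the fetus or of other tissues. For each library the log2 ratio of CPM per kb of exon was taken, first gene over second, and the groups were compared by an exact permutation test (two-sided, 70 assignments of 8 libraries), whose smallest p is 0.0286. The ratio was lower in Diff. than in mature hepatocytes in all 14 pairs, and 13 reached the exact permutation p of 0.0286 (adjusted p = 0.0308 over the 14 pairs). The pairs were chosen with earlier results of these data known, so these p values describe the chosen genes and are not an independent test. Per length, the first gene exceeded the second in all 14 pairs in mature hepatocytes and in 11 of 14 in Diff. hepatocytes. The ratio of Scd1 to Scd2, the adult and fetal desaturases, was -0.81, -0.03, -0.39 and -0.31 in the Diff. libraries and 10.17, 10.11, 10.59 and 11.15 in the mature libraries. The pair Pklr and Pkm, pyruvate kinases, gave -0.42, 1.05, 1.14 and 1.67 against 4.31, 6.49, 5.75 and 5.67. Alb over Afp was 1.63, 1.74, 1.58 and 1.61 against 11.65, 11.59, 11.10 and 12.38, and Igf1 over Igf2 -5.90, -6.83, -8.25 and -7.76 against 9.32, 8.89, 8.85 and 9.02. Cyp3a11 over its fetal relative Cyp3a16 was 2.51, 2.82, 2.49 and 2.30 against 11.75, 12.54, 12.47 and 11.97, from a hepatoblast mean of -3.20. Car3 over Car2 was -3.52, -4.02, -3.58 and -2.52 against 9.34, 8.15, 8.16 and 9.53, below the -1.46, 0.94, 1.79 and 2.36 of hepatoblasts. The mean of Car2 was 2.49 CPM per kb in Diff. and 2.88 in mature hepatocytes, and the libraries overlapped. The difference of this pair between Diff. and mature hepatocytes thus lay in Car3 and not in more Car2. In hepatoblasts the mean of Car2 was 58.1 CPM per kb, with 158 in replicate 1. Mat1a over Mat2a, the liver and general enzymes that make S-adenosylmethionine, differed by -0.42 (exact permutation p = 0.0857), with a mean of 5.34 in Diff. hepatocytes and ratios of -0.55, -1.14, 0.02 and 0.49 in hepatoblasts. Of the other pairs, 4 differed by -4.71 (Pygl/Pygb), -3.62 (Gys2/Gys1), -3.36 (Slc2a2/Slc2a1) and -6.85 (Slc7a2/Slc7a1).

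**Figure D3:**
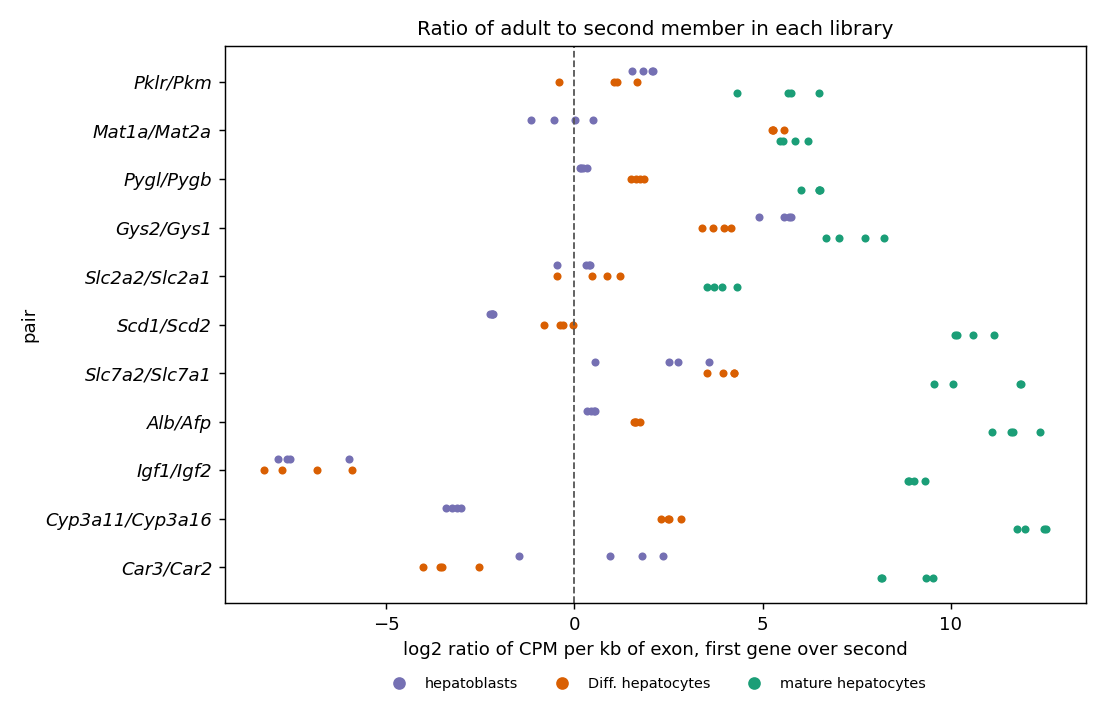
Points are single libraries of hepatoblasts, Diff. hepatocytes and mature hepatocytes (4 each), with the log2 ratio of CPM per kb of exon of the first gene over the second on the x axis. Of the 14 pairs 11 are drawn. The Diff. libraries lie left of the mature libraries in each of them but Mat1a/Mat2a, where they overlap.

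As shares of the counts, which are relative to library totals and not to TMM sizes, the lists differed as follows. Male-biased genes took 0.0854% of the counts in Diff. and 2.30% in mature hepatocytes, drug oxidation 0.353% and 1.79%, bile acid synthesis 0.229% and 0.772%, and the urea cycle and amino acid list 1.85% and 2.998%. Acute phase genes took 2.01% and 0.945%, and imprinted genes 2.73% and 0.0149%. Plasma carriers, inhibitors and apolipoproteins took 14.6% and 17.4%, while in summed CPM they had 123290, 137853, 144741 and 144416 in Diff. and 237535, 216858, 226845 and 267950 in mature libraries.

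Promoters were read for short motifs to see what the genes that moved together share in sequence. RefSeq promoters of GRCm38.p6, from 250 bases before to 50 bases after the start of a gene, matched 11521 of the 16361 genes, and each motif was searched on both strands. The HNF1 motif GTTAATNAT stood in 0.790% of the 11521 promoters, in 1.60% of the 1940 of genes called lower, in 0.724% of the 2347 of genes called higher, and in 6.63% of the 166 of adult list genes called lower. It also stood in 2 of 48 embryonic list genes called higher, in 1.17% of genes lower by over 5 on the log2 scale and in 1.40% of those higher by over 5. The HNF4 motif CAAAGTCCA stood in 0.686%, 1.29%, 0.511% and 4.82% of all promoters, those of genes called lower, of genes called higher and of adult list genes called lower, and the TATA box TATAAA in 9.79%, 13.7%, 11.5% and 26.5% in the same order. The adult list genes are liver genes by choice, so these shares describe the lists. In that order the D-box TTATGTAA stood in 0.790%, 1.19%, 0.724% and 1.205%, the AP-1 motif TGANTCA in 6.81%, 8.81%, 7.71% and 12.7%, the sterol element TCACNCCAC in 1.43%, 1.96%, 1.19% and 4.82% and the antioxidant element TGACNNNGC in 16.7%, 15.5%, 16.4% and 11.4%. The TEAD motif GGAATG, for the DNA-binding partners of YAP, stood in 15.01% of all promoters, against 17.6% in genes called higher, 16.2% in genes called lower and 20.5% in adult list genes called lower, and in 20.98% of genes higher and 21.01% of genes lower by over 5 on the log2 scale. A match is a run of letters and not a bound site.

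The 4 promoters printed below belong to Alb and Afp, neighbours on chromosome 5 with a ratio that differed between the groups, to Cyp8b1, lower in Diff. hepatocytes, and to Ankrd1, higher there. They are given 5′ to 3′ on the strand of the gene, with matches to the HNF1, HNF4, D-box, TATA and TEAD motifs in capitals. Matches to the other motifs are not marked. Alb (chr5:90460620-90460919, plus strand) holds the D-box on both strands and the HNF1 motif. Afp (chr5:90490464-90490763, plus strand) holds the HNF1 motif and a TATA box. The HNF1 letters thus stand before Alb, which was lower in Diff. hepatocytes, and before Afp, which was higher. Cyp8b1 (chr9:121916256-121916555, minus strand) holds the HNF4 motif and a TATA box, and Ankrd1 (chr19:36119795-36120094, minus strand) holds the TEAD motif in 2 places. The letters of the antioxidant element also stand, unmarked, in Ankrd1 and, on the opposite strand, in Cyp8b1.
Alb: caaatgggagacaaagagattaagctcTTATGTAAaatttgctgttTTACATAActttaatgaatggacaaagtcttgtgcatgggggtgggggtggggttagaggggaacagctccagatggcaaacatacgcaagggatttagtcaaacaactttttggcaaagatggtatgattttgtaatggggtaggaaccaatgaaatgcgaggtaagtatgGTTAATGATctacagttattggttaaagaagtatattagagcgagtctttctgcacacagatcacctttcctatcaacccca
Afp: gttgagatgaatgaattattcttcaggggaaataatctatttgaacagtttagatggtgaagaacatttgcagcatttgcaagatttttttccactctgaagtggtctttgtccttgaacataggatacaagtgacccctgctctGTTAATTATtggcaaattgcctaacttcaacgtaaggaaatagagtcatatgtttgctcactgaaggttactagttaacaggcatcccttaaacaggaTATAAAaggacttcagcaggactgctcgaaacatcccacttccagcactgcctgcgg
Cyp8b1: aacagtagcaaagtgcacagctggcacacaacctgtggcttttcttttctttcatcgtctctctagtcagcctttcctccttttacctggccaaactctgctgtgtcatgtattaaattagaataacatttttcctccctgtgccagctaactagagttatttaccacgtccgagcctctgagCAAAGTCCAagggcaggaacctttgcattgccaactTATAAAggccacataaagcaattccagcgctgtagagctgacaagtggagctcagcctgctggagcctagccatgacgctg
Ankrd1: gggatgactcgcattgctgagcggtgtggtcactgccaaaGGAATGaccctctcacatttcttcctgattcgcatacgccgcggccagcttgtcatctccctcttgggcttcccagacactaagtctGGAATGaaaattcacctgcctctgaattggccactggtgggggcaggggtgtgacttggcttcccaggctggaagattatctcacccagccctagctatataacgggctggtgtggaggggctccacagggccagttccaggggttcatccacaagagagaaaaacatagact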

How the data were processed

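Poly(A) RNA of 12 libraries was sequenced by the authors as stranded single reads, and the file analysed here holds the raw counts per gene that they deposited. According to the study's methods and the submitters' processing notes, reads were checked with FastQC 0.11.2, mapped to GRCm38 and counted with STAR 2.5.2b on the annotation of Ensembl release 92. Duplication was assessed with Picard 2.10.2. Whether duplicates were removed, and which strand setting was used for the counts, is not given in the sources used here. Gene names, types and coordinates came from GENCODE release M21 (Ensembl release 96), which holds 53620 of the 53715 gene IDs.

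Groups were taken from the sample labels, with 4 libraries each of Diff. hepatocytes, mature hepatocytes and hepatoblasts. Genes with more than 10 counts in any of the 8 Diff. and mature libraries were tested, and in each library these genes took 99.9% of the counts or more. edgeR 4.0.16 (R 4.3.3) was used for TMM scaling and the quasi-likelihood test, fitted over the 12 libraries with group as the term and adjusted by the Benjamini-Hochberg method over the 16361 genes. Log2 CPM used a prior count of 2, and pair ratios added 0.5 counts to each gene. Alternatives used DESeq2 1.42.0, other scalings, other filters and fewer libraries. The procedure was tested on simulated counts before use, in which 192 of 200 changed genes and 2 unchanged genes were called. All simulated libraries shared the same expression profile apart from these 200 genes. The dependence on scaling seen in the real data was therefore not tested by them. Replicates of a group differed by more than counting noise (chi-square per gene from 6.11 to 91.4 over pairs of replicates). Intervals and floors cover counting error only. A gene was taken to share sequence by the percentage of the 75-base windows of its GENCODE transcripts that also occur in transcripts of another gene, and its counts are uncertain to that extent.

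The genes named were the members of the lists and pairs and, among called protein-coding genes with no overlap and a mean of at least 50 CPM in the higher group, the 12 with the largest fold change and the 5 with the largest difference in mean CPM in each direction. The members and lists were chosen with earlier results of these data known, and the choice of which list genes to print was made once their values had been seen. Some members of the lists and 3 of the 14 pairs are counted in the totals but not reported here.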

Additional observations from a re-analysis of the deposited data

Results flagged for a closer look

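In 402 groups of 4 values, 32 had 1 library set far apart from the other libraries of its group by Dixon's 95% criterion, where chance gives about 1 in 20, or 20.1. In Diff. hepatocytes replicate 1 these were the levels of Serpina3k (14.3 CPM), Igf2bp1 (75.4 CPM), Top2a (33.7 CPM), Klf6 (87.4 CPM), Cldn2 (23.7 CPM), Saa1 (1.11 CPM) and Elovl3 (0.128 CPM), all above the other Diff. libraries, and the share of DNA replication and mitosis genes in the counts (0.0414%), also above. In Diff. hepatocytes replicate 2, Dcn (51.6 CPM), Pfkp (197 CPM), Mup1 (0.0425 CPM) and the share of sex-linked genes (0.0729%) were above the others, and Fkbp5 (229.7 CPM) and Sgk1 (146 CPM) below. The Mat1a/Mat2a ratio was highest in Diff. hepatocytes replicate 3 (5.56 on the log2 scale). Diff. hepatocytes replicate 4 was above the others in Car3 (1.37 CPM), Slc22a7 (0.0488 CPM) and Cyp4a12b (0.0975 CPM) and below them in the share of pericentral genes (0.0521%).

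Among mature libraries, replicate 1 was set apart in Krt19 (9.24 CPM, above). Replicate 2 was above the others in Lcn2 (18.8 CPM) and Saa1 (780.3 CPM) and below them in Fos (104 CPM) and Scd1 (5927 CPM). Replicate 3 was below in Fabp1 (5887 CPM) and in the Pygl/Pygb ratio (6.02 on the log2 scale) and above in Vmn2r3 (0.115 CPM). Replicate 4 was above in Cyp1a2 (1249 CPM) and Lin28b (0.0611 CPM) and below in Cyp4a12b (67.1 CPM), Plagl1 (0.244 CPM) and Phgdh (0.428 CPM). The levels of Elovl3, Mup1, Slc22a7, Cyp4a12b, Vmn2r3 and Lin28b under 0.2 CPM stand for few counts.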

How the results depend on the processing

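Of the 6233 genes called, 3475 were higher and 2758 lower. A fold change threshold inside DESeq2's test left 3539 (1935 and 1604). With at least 10 counts in every library 11290 genes were tested and 3220 called (1556 and 1664), a filter that removes genes near 0 in one group. Without a fold change threshold and at an adjusted p under 0.05 there were 11334 (5862 and 5472). Library totals gave 5306 higher and 1772 lower, and totals without the 50 most abundant genes 5469 and 1741. The other settings kept each count within 1.5 times, with 6372 calls by DESeq2's Wald test, 4190 by edgeR's threshold test, 6248 with DESeq2 size factors, 6647 of 29943 genes with at least 1 count in any library, 5491 of 14432 with edgeR's filter and 6128 in a fit of the 8 libraries. Leaving out each library in turn gave 5920 to 6063 calls, 3252 to 3374 of them higher and 2659 to 2718 lower. Leaving out hepatoblasts replicate 1, chosen after seeing the data, gave 6397.

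A replicate block gave 6270 calls (3509 higher and 2761 lower). The numbers did not pair the Diff. and mature libraries, since deviations of same-numbered libraries correlated at 0.0906, 0.00396, -0.0869 and 0.0449, and not every library correlated best with its own number. Whether they pair Diff. with hepatoblast libraries was not tested, and the main fit took no pairs. The share of sex-linked genes was highest in replicate 2 of both groups (0.073% in Diff. hepatocytes and 0.079% in hepatoblasts). That of macrophage markers was highest in replicate 1 of both (0.027% and 0.067%).

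Of the 141 genes given with values, 127 had the same call in every setting in which they were tested, 14 changed in at least 1, 3 of these when a library was left out, and 0 reversed. Among list medians, those of junctions, cholesterol synthesis, acute phase, NRF2, folding and hepatocyte identity changed sign with library totals. With at least 10 counts in every library, so did those of the female-biased, cholesterol, acute phase, folding and erythroid lists, and with edgeR's filter those of cholesterol synthesis and erythroid cells. The cholesterol median also changed sign without Diff. hepatocytes replicate 1 or mature hepatocytes replicate 1, and the folding median without the latter. The cause was not tested. The difference of Mat1a/Mat2a lay between -0.52 and -0.27 when a library was left out. Genes with few counts in 1 group have fold changes limited by depth.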
